A study of Mus musculus with 9 samples.

Results

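The proteasome is described here as it appears in RNA from the tibialis anterior, a muscle of the front of the lower leg, of mice with and without changes in Svil, the gene of the actin- and myosin-binding protein supervillin. The members are the genes whose symbol is Psm followed by a letter from a to g and a number. There were 48 such genes of 56805 in the expression table. The left muscle of 13-month-old male mice was sampled, with 3 libraries each from wild-type mice (WT), Svil knockout mice (Svil-KO) and Svil mutant mice (Svil-Mut). The change made to Svil in each strain, the tissues it affects and any shared litters are not stated in the labels. All 9 libraries carry the same batch label.

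The proteasome is the main protease of the cytosol and nucleus and degrades proteins tagged with ubiquitin. Its barrel-shaped core, the 20S particle, has outer rings of alpha subunits, which gate the entrance, and inner rings of beta subunits, some of which cut peptide bonds. A 19S cap recognizes, unfolds and feeds in the substrate, with a base of ATPases and a lid that removes ubiquitin. In skeletal muscle this system degrades many proteins of the contractile apparatus and is known for its part in muscle wasting. Immune signals such as interferon induce alternative catalytic subunits, which form the immunoproteasome.

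The members comprised 8 alpha ring genes, 7 constitutive beta ring genes, 4 inducible or thymic beta genes, 6 base ATPases, 3 other base subunits, 8 lid subunits, 5 activators or inhibitors of the core and 7 assembly chaperones. Of the 48 members, 46 reached a normalized count of 10 in at least 3 libraries and were tested. Psmb11, the thymic catalytic subunit, was at 0 in every library. Psma8, the alpha subunit of spermatocytes, was at 0 in the WT libraries and at most 9.55 in any library. The 8 genes with a similar symbol that did not match the name pattern were left out. Among these, the copies Psmb6-ps2 (273 to 351), Psma5-ps (110 to 165) and Psme2b (168 to 235) had normalized counts in every library, so reads of Psmb6, Psma5 and Psme2 could have been divided with near-identical copies.

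The promoters of 3 individually described members are shown because each holds the core of the antioxidant response element, to which the cap'n'collar factors NRF1 (gene Nfe2l1) and NRF2 (gene Nfe2l2) are known to bind. Each window runs from 250 bases before to 50 after the RefSeq start on GRCm38.p6, 5′ to 3′ on the strand of the gene. The core, TGACNNNGC on either strand, is in capitals. The Psmb5 window is chr14:54617946-54618245 on the minus strand, the Psmb6 window chr11:70525107-70525406 on the plus strand and the Psme4 window chr11:30771525-30771824 on the plus strand.
Psmb5: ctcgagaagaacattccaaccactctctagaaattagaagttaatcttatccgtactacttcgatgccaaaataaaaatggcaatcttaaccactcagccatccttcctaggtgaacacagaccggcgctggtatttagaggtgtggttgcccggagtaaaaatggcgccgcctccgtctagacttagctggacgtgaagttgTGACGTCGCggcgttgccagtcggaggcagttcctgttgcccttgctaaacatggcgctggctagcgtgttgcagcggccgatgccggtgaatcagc
Psmb6: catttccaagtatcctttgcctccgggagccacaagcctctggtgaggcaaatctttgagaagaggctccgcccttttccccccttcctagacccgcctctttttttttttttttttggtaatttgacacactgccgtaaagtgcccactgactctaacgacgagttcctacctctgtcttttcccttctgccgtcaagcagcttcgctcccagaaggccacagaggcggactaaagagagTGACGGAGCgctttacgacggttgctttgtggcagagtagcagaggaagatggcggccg
Psme4: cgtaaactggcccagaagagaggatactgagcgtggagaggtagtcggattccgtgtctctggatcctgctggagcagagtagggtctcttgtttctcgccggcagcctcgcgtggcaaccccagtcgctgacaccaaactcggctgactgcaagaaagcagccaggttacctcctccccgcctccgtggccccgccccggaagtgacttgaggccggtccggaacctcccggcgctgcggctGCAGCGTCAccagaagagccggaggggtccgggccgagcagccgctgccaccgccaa
In Psmb5 the match began 47 bases before the start and in Psmb6 9 bases before it. In Psme4 it lay on the opposite strand and reached across the start. Windows of 300 bases were found for 40 of the 48 members, and 6 of the 40 genes (15.0%) held the core, against 14.0% of the 27025 genes in the whole promoter table. The other 3 were Psmc6, Psmd9 and Psmd12, chosen here for the match alone. The letters CCAAT, searched on both strands and counted without regard to the other motif, were in 14 of the 40 genes (35%), against 41.1% of all genes. The letters TATAAA were searched only in the 50 bases before the start, on the strand of the gene. They were found there in none of the 43 member windows and in 2.63% of all windows. The members' windows had a median GC content of 57.3% and a median of 19 CpG pairs, against 52.7% and 7 over the table. A match describes letters and not occupancy of the site.

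Libraries held between 36234428 and 48762188 reads assigned to genes, recovered from the deposited normalized counts, with Svil-KO 4 the deepest, and between 19282 and 19988 genes were detected. Svil itself had normalized counts of 8686, 9373 and 8407 in WT 1, 3 and 4, of 7402, 6746 and 6656 in Svil-KO 1, 3 and 4, and of 4615, 3939 and 4582 in Svil-Mut 1, 2 and 4. Both altered genotypes lay below every WT library, and the knockout retained more Svil reads than the mutant. Whether the counted exons include the altered part is not stated, so these counts check the labels only in part. Muscle fibre markers were detected in every library, with summed normalized counts of 5913026 to 6300973 in WT, 5918945 to 6740348 in Svil-KO and 6787004 to 7438139 in Svil-Mut. Most of each sum was Acta1 and Myh4. Of the 10 markers 2 lay lower in Svil-Mut than in WT, Myh1 (mean 151078 against 229915) and Myh2 (13630 against 38392). All values come from whole muscle, where fewer cells of a type and less RNA per cell cannot be told apart. The limma p-values rest on the spread between libraries of a genotype, pooled over the 3 genotypes and drawn toward that of other genes. There were only 3 libraries per genotype.

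**Figure D1:**
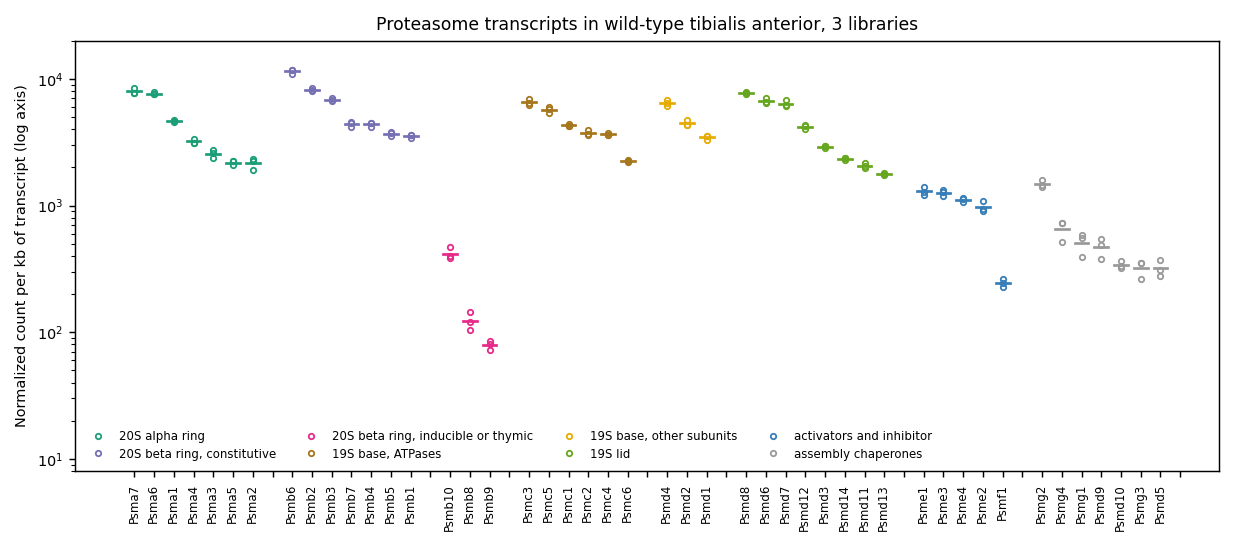
Normalized count per kilobase of the principal transcript (log axis) for the 46 tested members in the 3 WT libraries, grouped by role; points are libraries and bars are means. The inducible beta subunits lie lowest, with a class median of 123, while the classes of the constitutive core and the cap have medians of 3220 or more.

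In WT muscle the constitutive core and the cap were expressed at similar levels per length, and the inducible subunits far below them. Levels are given as normalized counts per kilobase of the principal transcript, the longest where several are annotated. A comparison between genes on this scale rests on these lengths, which in the alpha ring were 2911 bases for Psma2 and 914 for Psma7. The class median was 3220 for the alpha ring, 4418 for the constitutive beta ring, 4023 for the ATPases, 4463 for the other base subunits and 3556 for the lid. It was 1112 for activators and inhibitors, 470 for assembly chaperones and 123 for the inducible subunits. Psmb6, the caspase-like catalytic subunit, was the highest member at 11511 per kilobase, and Psmb9, its inducible counterpart, the lowest tested member at 79.3. Within the classes with a role in every 26S particle, the highest subunit exceeded the lowest by 3.71-fold in the alpha ring (Psma7 over Psma2), 3.24-fold in the constitutive beta ring (Psmb6 over Psmb1), 2.91-fold among the ATPases (Psmc3 over Psmc6) and 4.37-fold in the lid (Psmd8 over Psmd13). These levels per kilobase rest on mean values over 3 libraries. Of the 45 neighbouring pairs in the order of WT levels per kilobase, 28 overlapped between libraries, so most neighbours did not differ beyond their spread. Over 46 genes these levels followed those from the union of exons (Spearman's rho 0.928, a description across genes, which are not independent). The extremes nevertheless depended on the length used. Per kilobase of the union of exons, Psma6 was the highest member at 6465, with Psmb6 at 4907, and Psmb9 remained the lowest tested. The highest and lowest were then Psma6 and Psma4 in the alpha ring and Psmb2 and Psmb1 in the constitutive beta ring. They were Psmc5 and Psmc2 among the ATPases and Psmd7 and Psmd11 in the lid.

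Proteasome transcripts varied little between mice of the same genotype. The median within-genotype standard deviation of the log2 normalized count was 0.10 over the 46 members and 0.28 over all 15279 genes tested, and 44 of the 46 lay below the latter. The members were also more deeply counted, with a median normalized count of 5116 against 314, and the part of depth in the difference was not tested. The 2 above it were the inducible subunits Psmb8 and Psmb9. By class the median within-genotype standard deviation ranged from 0.07 on the log2 scale for the ATPases to 0.33 for the inducible subunits, with 0.17 for the assembly chaperones.

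**Figure D2:**
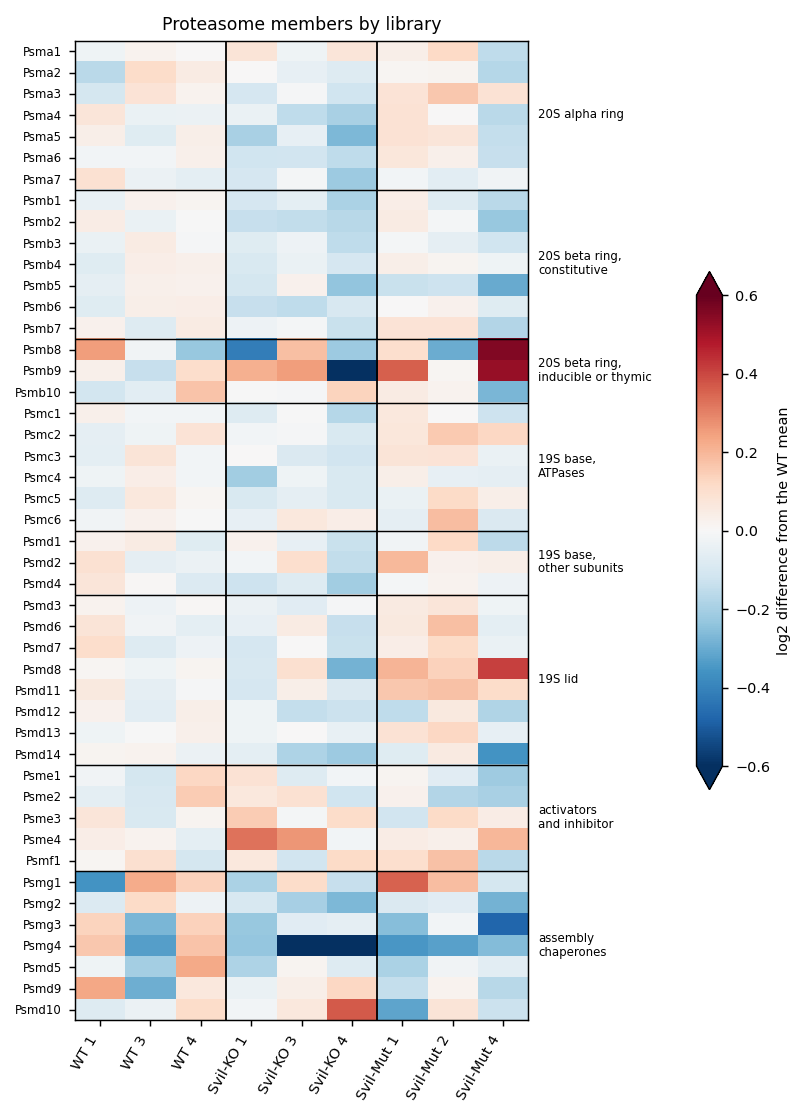
Difference of each of the 46 tested members from its WT mean on the log2 scale, by library, in the order of the roles; colours are capped at 0.6 in either direction. Svil-KO 4 and Svil-Mut 4 are blue over most core and cap subunits, and the inducible subunits and Psmg4 hold the strongest colours.

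In Svil-KO muscle no proteasome gene passed the test against WT, and most members lay slightly below their WT level. By limma with Benjamini-Hochberg adjustment over 15279 genes, 0 of 46 members had an adjusted p below 0.05, where 0.0% of all genes did, and the smallest adjusted p of a member was 0.997. At an unadjusted p below 0.05 there was 1 member, Psmg4, where 4.11% of all genes were found, and edgeR and DESeq2 on the recovered reads called 0 members as well. The median log2 difference of the 46 was -0.08, a level of 94.8% of WT, against 0.0031 over all genes. Differences were below 0 for 37 of 46 members (80.4%), against 49.4% of all genes. The 3 Svil-KO libraries lay below the 3 WT libraries without overlap for 8 members (17.4%), against 5.45% of all genes, and above them for 0 members, against 5.2%. The 8 were Psma4, Psma6, Psmb1, Psmb2, Psmb6, Psmc4, Psmd14 and Psmg2, named after their values were seen.

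The size of the shift differed among the Svil-KO libraries. The median difference of the 46 members from the WT mean, in log2, was -0.07 in Svil-KO 1, -0.02 in Svil-KO 3 and -0.12 in Svil-KO 4, against 0.01, -0.02 and 0.02 in WT 1, 3 and 4. Svil-KO 3 therefore lay within the range of the WT libraries, and Svil-KO 4 lay lowest. Without Svil-KO 4 the median log2 difference of the 46 was -0.04, with 36 of 46 below 0 and 9 members lower without overlap, where 9.81% of all genes then were. Without Svil-KO 3 the number lower without overlap was 19, where 10.8% of all genes then were, and without WT 1 or WT 3 it was 14, where 10.9% and 10.5% of all genes were.

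Together the 48 members made up 0.598%, 0.605% and 0.598% of all counts in WT 1, 3 and 4. In Svil-KO 1, 3 and 4 they made up 0.567%, 0.577% and 0.558%. In Svil-Mut 1, 2 and 4 they made up 0.602%, 0.594% and 0.590%. The Svil-KO share was below every WT share, at 0.567% ± 0.0096 against 0.600% ± 0.0037 (SD, n = 3 each), with an exact two-sided permutation p of 0.1, the smallest that 3 against 3 allows, and 0.15 after adjustment over the 3 comparisons. The Svil-Mut share of 0.595% ± 0.0061 overlapped the WT shares (exact permutation p = 0.4, n = 3). Relative to the counts left when the 10 most abundant genes were taken out, the Svil-KO share remained lower than in WT (0.761% against 0.800%) and the Svil-Mut share turned higher than in WT (0.829%, without overlap; exact permutation p = 0.1). The Svil-Mut direction thus depended on the genes in the denominator. Of the 10 muscle fibre markers 7 lay below 0 in Svil-KO. The markers' median log2 differences from the WT mean were -0.04, 0.02 and -0.12 in Svil-KO 1, 3 and 4. They were -0.01, 0.06 and -0.03 in WT 1, 3 and 4, and 0.06, 0.21 and 0.01 in Svil-Mut 1, 2 and 4. The libraries were ordered as by the members' medians within Svil-KO, but not within WT or Svil-Mut. Among the markers of other cells, those of adipocytes had summed normalized counts of 8502 to 9775 in Svil-KO and 9664 to 11453 in WT, and those of leukocytes 2307 to 5620 and 2461 to 3720, with 8 of 8 and 7 of 12 tested markers below 0. Most of the adipocyte sum was Fabp4, with a mean of 8570 in Svil-KO and 9492 in WT. The part of fibre content and cell makeup in the members' levels was not tested.

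**Figure D3:**
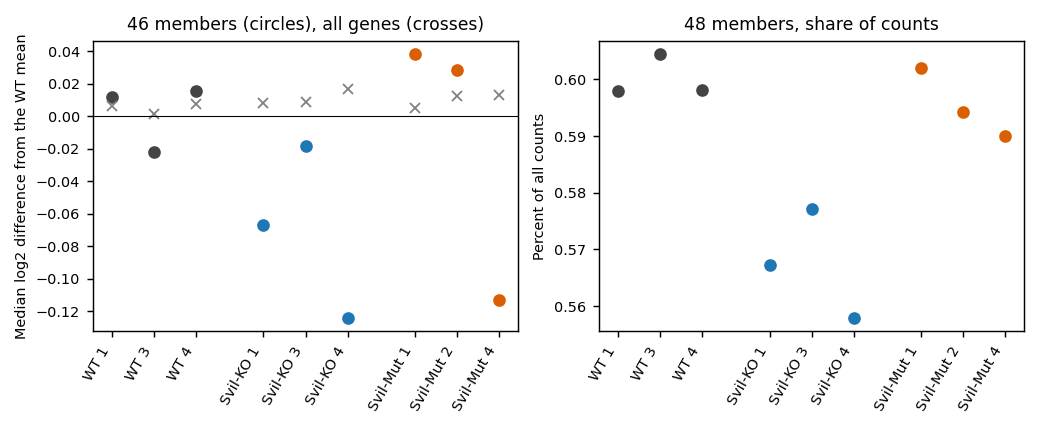
Left, median log2 difference from the WT mean by library over the 46 tested members (circles) and over all genes (crosses); right, the share of all counts taken by the 48 members, on an axis that does not start at 0. The 3 Svil-KO libraries have the lowest shares (0.558% to 0.577%), and Svil-Mut 4 lies apart from the other Svil-Mut libraries in the left panel.

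By role, values below 0 in Svil-KO were found in the rings of the core and in the cap, while most activators lay at or above 0. In the alpha ring 6 of 7 tested genes lay below 0 (median log2 difference -0.11), in the constitutive beta ring 7 of 7 (-0.11), among the inducible subunits 2 of 3 (-0.15), among the ATPases 5 of 6 (-0.07), among the other base subunits 3 of 3 (-0.05) and in the lid 8 of 8 (-0.06). Of the activators and inhibitors 1 of 5 lay below 0 (0.02), and of the assembly chaperones 5 of 7 (-0.08). None of these genes passed the test. With the counts here the 95% interval of a member's log2 difference reached a median of 0.19 to either side, and for 42 of the 46 members it lay within 0.5 of no difference, so larger changes of those members were outside the intervals.

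In Svil-Mut muscle the members were centred on their WT level. The count past an adjusted p below 0.05 in limma was 0 of 46, where 0.0393% of all genes passed, and the smallest adjusted p of a member was 0.442, for Psmd8. One gene, Psmd8, had an unadjusted p below 0.05, where 10% of all genes did. Neither edgeR nor DESeq2 on the recovered reads called a member (0 each). The median log2 difference of the 46 was -0.01, against -0.0046 over all genes, and 25 of 46 (54.3%) lay below 0, against 50.7% of all genes. Libraries did not overlap for 1 lower member, Psmb5 (6.81% of all genes), and for 2 higher ones, Psmd8 and Psmd11 (7.13% of all genes), shares at or below the background. The median differences of the libraries from the WT mean were 0.04, 0.03 and -0.11 in Svil-Mut 1, 2 and 4, so that Svil-Mut 4 stood apart. The same library had the highest summed counts of leukocyte markers (6799, against 2655 and 2873 in Svil-Mut 1 and 2) and of red blood cell markers (53571, against 10671 and 19567). Without Svil-Mut 4 the median log2 difference turned to 0.03, with 16 of 46 below 0, and without WT 4 it was 0.0040.

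The class medians of the log2 difference of Svil-Mut from WT were -0.01 for the alpha ring, -0.06 for the constitutive beta ring, 0.03 for the ATPases, -0.01 for the other base subunits and 0.05 for the lid. They were 0.12 for the inducible subunits, 0.01 for activators and inhibitors and -0.12 for assembly chaperones. The 2 comparisons share their WT libraries, so these values and those of Svil-KO are not independent. In Svil-Mut, red blood cell markers had summed normalized counts of 10671 to 53571, against 9117 to 13153 in WT and 7028 to 10980 in Svil-KO, and fibroblast markers 19092 to 25390, against 23572 to 34812 in WT. Adipocyte markers had 7079 to 10656 in Svil-Mut, with 7 of 8 below 0 and a median log2 difference from WT of -1.35. Most of that sum was Fabp4, with a mean of 7808 in Svil-Mut and a log2 difference from WT of -0.28. None of the markers passed the test, no listed marker was at 0 throughout, and their part in the members' values was not tested.

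**Figure D4:**
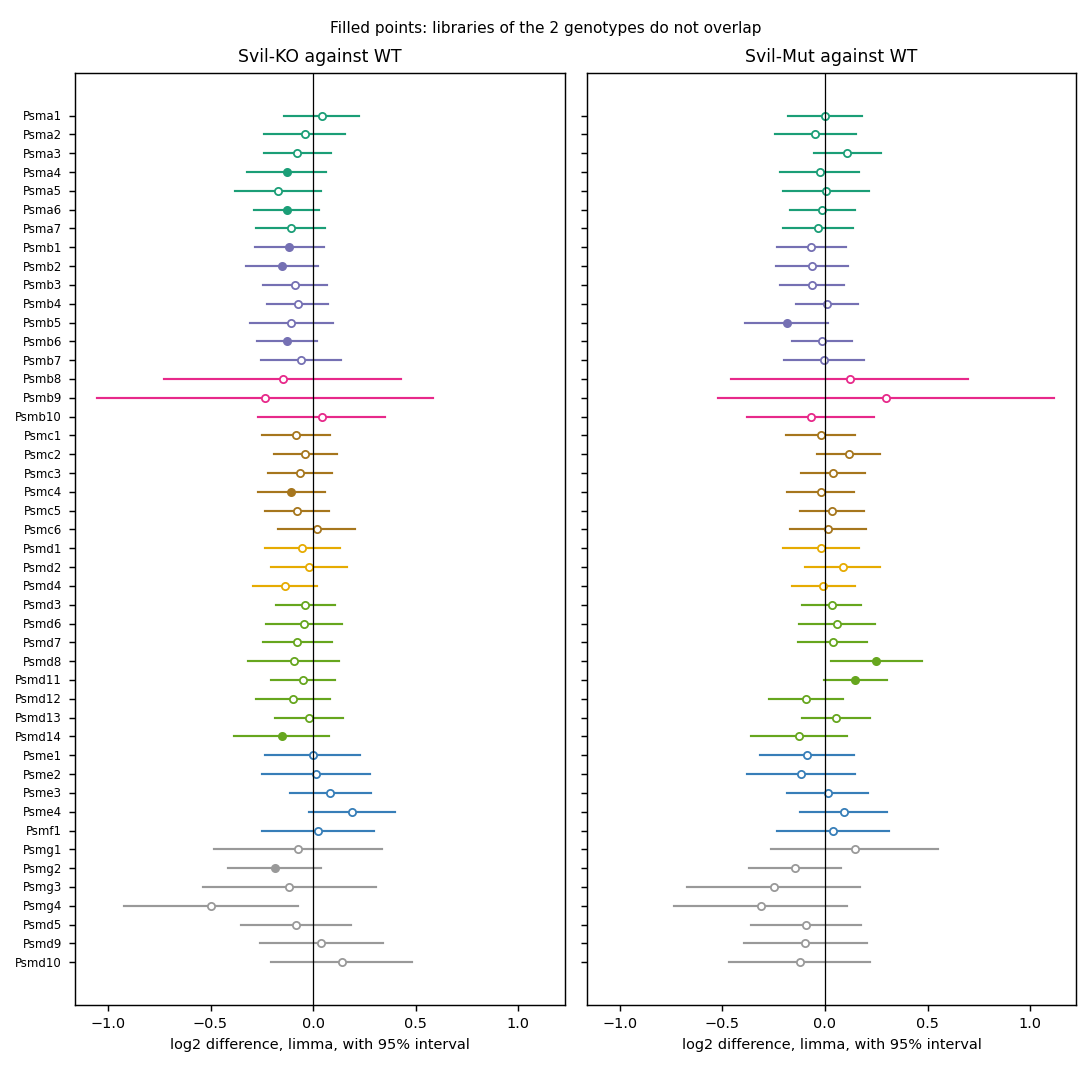
Log2 difference with its 95% interval (limma) for each of the 46 tested members in Svil-KO against WT and Svil-Mut against WT, coloured by role; filled points mark members whose libraries do not overlap. In Svil-KO 37 of 46 points lie left of 0 against 25 of 46 in Svil-Mut, and the widest intervals belong to Psmb8 and Psmb9.

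Set directly against Svil-Mut, most members in Svil-KO again lay slightly lower, with no member called. The Svil-KO libraries are those of the comparison with WT. In limma 0 of 46 members had an adjusted p below 0.05, where 0.0458% of all genes did, and at an unadjusted p below 0.05 there were 4 (Psma3, Psmc2, Psmd8 and Psmd11), where 10.2% of all genes were found. The edgeR and DESeq2 fits called 0 members too. The median log2 difference of Svil-KO from Svil-Mut was -0.07, against 0.0089 over all genes, and 33 of 46 members (71.7%) lay below 0, against 48.6%. Svil-KO lay below Svil-Mut without overlap for 8 members (17.4%), against 7.66% of all genes, and above it for 0, against 7.55%. These were Psma3, Psmb4, Psmb6, Psmc2, Psmc5, Psmd4, Psmd8 and Psmd11, named after their values were seen. Without Svil-Mut 4 the median was -0.11 and 22 members were lower without overlap, where 13.5% of all genes then were. Without Svil-KO 3 it was 14 members, where 13.0% of all genes then were.

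In the alpha ring, Psma6 and Psma3 had the smallest p-values. Psma6 (ENSMUSG00000021024) had normalized counts of 7882, 7899 and 8154 in WT 1, 3 and 4, of 7338, 7372 and 7189 in Svil-KO 1, 3 and 4, and of 8363, 8150 and 7256 in Svil-Mut 1, 2 and 4. Every Svil-KO library lay below every WT library, at a log2 difference of -0.13 ± 0.07 (SE; limma adjusted p = 0.997), while Svil-Mut overlapped both. Psma3 had 6785, 7741 and 7415 in WT, 6810, 7261 and 6713 in Svil-KO, and 7730, 8166 and 7749 in Svil-Mut. The mutant libraries exceeded all Svil-KO libraries and overlapped WT, and the log2 difference of Svil-KO from Svil-Mut was -0.19 ± 0.07 (SE; limma adjusted p = 0.438). The other tested alpha subunits, Psma1, Psma2, Psma4, Psma5 and Psma7, had log2 differences from WT between -0.17 (Psma5) and 0.04 (Psma1) in Svil-KO.

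The catalytic beta subunits cover the constitutive set, Psmb6 (caspase-like), Psmb7 (trypsin-like) and Psmb5 (chymotrypsin-like), and the inducible set that replaces them in the immunoproteasome, Psmb9, Psmb10 and Psmb8 in the same order. Psmb6, on chromosome 11 from 70525367 to 70527858 of GRCm38, had normalized counts of 8722, 9412 and 9422 in WT 1, 3 and 4, 8340, 8247 and 8593 in Svil-KO 1, 3 and 4, and 9206, 9346 and 8720 in Svil-Mut 1, 2 and 4. Svil-KO lay below all libraries of both other genotypes, at a log2 difference from WT of -0.13 ± 0.07 (SE; limma adjusted p = 0.997). Psmb5, on chromosome 14 from 54614119 to 54618022, had 3202, 3400 and 3382 in WT, 3088, 3389 and 2821 in Svil-KO, and 3036, 3057 and 2694 in Svil-Mut. Here Svil-Mut was below WT without overlap, at a log2 difference of -0.19 ± 0.09 (SE; limma adjusted p = 0.533), and Svil-KO overlapped both. Psmb7, on chromosome 2 from 38588036 to 38644087, had 5217, 4858 and 5301 in WT, 5009, 5076 and 4673 in Svil-KO, and 5415, 5414 and 4531 in Svil-Mut, with overlap throughout. The log2 differences of Psmb7 from WT were -0.06 ± 0.09 (SE) in Svil-KO and -0.01 ± 0.09 (SE) in Svil-Mut. The structural beta subunits Psmb1, Psmb2, Psmb3 and Psmb4 had log2 differences from WT of -0.15 (Psmb2) to -0.08 (Psmb4) in Svil-KO and of -0.07 (Psmb1) to 0.01 (Psmb4) in Svil-Mut.

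Of the inducible subunits, Psmb8 (chromosome 17, 34197721 to 34201454) had normalized counts of 236, 195 and 169 in WT 1, 3 and 4, 149, 225 and 171 in Svil-KO 1, 3 and 4, and 213, 161 and 292 in Svil-Mut 1, 2 and 4. Psmb9 (chromosome 17, 34181987 to 34187764) had 109, 97.1 and 115 in WT, 124, 127 and 47.0 in Svil-KO, and 137, 108 and 154 in Svil-Mut. Svil-KO 4 was the lowest library of Psmb9, and the genotypes of both genes overlapped. Psmb10 (chromosome 8, 105935735 to 105938444) had 504, 521 and 613 in WT, 544, 541 and 596 in Svil-KO, and 563, 552 and 450 in Svil-Mut, again with overlap. The log2 differences from WT were -0.15 ± 0.26 (Psmb8), -0.23 ± 0.37 (Psmb9) and 0.04 ± 0.14 (Psmb10) in Svil-KO (SE; limma adjusted p = 0.997 each). In Svil-Mut they were 0.12 ± 0.26, 0.30 ± 0.37 and -0.07 ± 0.14 in the same order (SE; limma adjusted p of 0.927, 0.848 and 0.920). Exons of Psmb9 overlap Tap1 over 5.79% of their length and those of Psmb8 an antisense gene, Gm20496, over 14.7%, and a library kit that does not mark strand cannot divide such reads. Constitutive subunits overlap other genes too, Psmb7 with Nek6 on the opposite strand (11.8%) and Psmb5 with Mir686 on the same strand (12.1%). The largest overlap of a member was that of Psmd9 with Gm26745, at 25.5%.

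Each inducible subunit was also set against its constitutive counterpart within the library, as a ratio of RNA levels. In whole muscle the RNAs of a pair can come from different cells, so the ratio does not measure exchange within a particle. Svil-Mut 4, with the highest summed leukocyte markers (6799), had the highest Psmb8 and Psmb9 (292 and 154) and the lowest Psmb10 (450). The part of leukocytes in the ratios was not tested. Per kilobase, Psmb8 reached 3.34% of Psmb5 in WT, Psmb9 0.690% of Psmb6 and Psmb10 9.43% of Psmb7. In Svil-KO these were 3.22%, 0.705% and 10.1%, and in Svil-Mut 4.26%, 0.869% and 9.0%. The 9 comparisons of these log2 ratios gave exact two-sided permutation p-values from 0.1 to 1, with 0.75 the smallest after Benjamini-Hochberg adjustment over the 9. As 0.1 is the smallest p that 3 against 3 libraries allow, no comparison could have passed a lower threshold. Only Psmb10 to Psmb7 in Svil-KO against Svil-Mut reached 0.1. There the log2 ratios did not overlap, at -3.23 to -2.97 in Svil-KO and -3.33 to -3.26 in Svil-Mut. The mean log2 ratio of Psmb9 to Psmb6 in Svil-KO differed from that in WT by -0.10, while the mean of the percentages was slightly higher than in WT. Without Svil-KO 4 this log2 difference was 0.38. Around these subunits, 10 antigen processing and interferon genes had summed normalized counts of 12522 to 14337 in Svil-KO, below the 14808 to 15656 of WT, and 14369 to 20720 in Svil-Mut. None of the 10 passed the test in Svil-KO (8 below 0, median log2 difference -0.12) or in Svil-Mut (3 below 0, 0.15). B2m, the light chain of class I molecules, had 3458, 3448 and 2991 in Svil-KO against 3948, 3803 and 5368 in Svil-Mut, without overlap, at a log2 difference of -0.39 ± 0.13 (SE; limma adjusted p = 0.353).

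**Figure D5:**
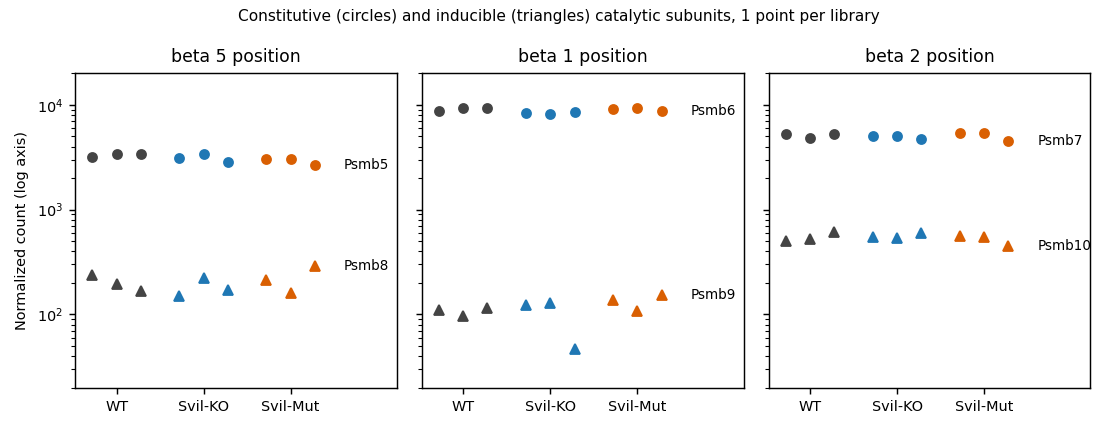
Normalized counts (log axis) of the constitutive (circles) and inducible (triangles) catalytic subunits at the beta 5, beta 1 and beta 2 positions, with 1 point per library. The genotypes overlap for all 3 inducible subunits, and the lone low point is Psmb9 in Svil-KO 4, at 47.0.

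The base of the cap holds the ring of ATPases, which unfolds the substrate, and the scaffold and ubiquitin receptor subunits. Psmc4, an ATPase, had normalized counts of 5165, 5398 and 5190 in WT, 4550, 5165 and 4935 in Svil-KO, and 5385, 5078 and 5062 in Svil-Mut. The highest Svil-KO library of Psmc4 lay just under the lowest WT library (5164.7 against 5165.2), so the lack of overlap with WT was by less than 1 count, and the log2 difference was -0.11 ± 0.07 (SE; limma adjusted p = 0.997). Psmc2, another ATPase, had 6430, 6547 and 7054 in WT, 6597, 6636 and 6266 in Svil-KO, and 6994, 7438 and 7261 in Svil-Mut. Svil-Mut exceeded all Svil-KO libraries of Psmc2, and Svil-KO differed from Svil-Mut by -0.15 ± 0.07 on the log2 scale (SE; limma adjusted p = 0.487). The remaining ATPases, Psmc1, Psmc3, Psmc5 and Psmc6, had log2 differences from WT of -0.08 (Psmc1) to 0.02 (Psmc6) in Svil-KO.

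Psmd4 encodes a receptor for ubiquitin chains. Its normalized counts were 9037, 8639 and 8117 in WT, 7870, 8146 and 7429 in Svil-KO, and 8512, 8706 and 8405 in Svil-Mut. Svil-KO 3 exceeded WT 4, while all Svil-KO libraries lay below Svil-Mut, and the log2 difference of Svil-KO from WT was -0.14 ± 0.07 (SE; limma adjusted p = 0.997). Psmd2, a scaffold of the base, had 14056, 12727 and 12864 in WT, 13066, 14155 and 11932 in Svil-KO, and 15109, 13459 and 13532 in Svil-Mut, with overlap between all genotypes. The other scaffold, Psmd1, had log2 differences from WT of -0.05 in Svil-KO and -0.02 in Svil-Mut.

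In the lid, Psmd8, a structural subunit on chromosome 7 from 29174188 to 29180701, showed the smallest p-value of all members in Svil-Mut against WT. Its normalized counts were 12004, 11692 and 12026 in WT 1, 3 and 4, 11127, 12710 and 9778 in Svil-KO 1, 3 and 4, and 13712, 13120 and 15804 in Svil-Mut 1, 2 and 4. All Svil-Mut libraries exceeded every other library, and Svil-Mut 4, low for most members, was the highest for Psmd8. The log2 difference of Svil-Mut from WT was 0.25 ± 0.10 (SE; limma adjusted p = 0.442) and that of Svil-KO from Svil-Mut was -0.35 ± 0.10 (SE; limma adjusted p = 0.321). Psmd11, a lid subunit singled out after its values were seen, had 6119, 5657 and 5835 in WT, 5479, 6003 and 5534 in Svil-KO, and 6556, 6621 and 6333 in Svil-Mut. As for Psmd8, Svil-Mut exceeded the other genotypes without overlap, at a log2 difference from WT of 0.15 ± 0.07 (SE; limma adjusted p = 0.517).

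Psmd14 is the metalloprotease of the lid that removes ubiquitin chains from the substrate. It had normalized counts of 3652, 3664 and 3524 in WT, 3468, 3182 and 3108 in Svil-KO, and 3434, 3750 and 2815 in Svil-Mut. Svil-KO lay below WT without overlap, at a log2 difference of -0.15 ± 0.10 (SE; limma adjusted p = 0.997), and Svil-Mut ranged from the lowest to the highest library of all. The other lid genes, Psmd3, Psmd6, Psmd7, Psmd12 and Psmd13, had log2 differences from WT of -0.10 (Psmd12) to -0.02 (Psmd13) in Svil-KO and of -0.09 (Psmd12) to 0.06 (Psmd6) in Svil-Mut.

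The activators open the core without the 19S cap. Psme4, the gene of PA200, on chromosome 11 from 30771726 to 30880361, had normalized counts of 7411, 7323 and 6921 in WT, 9036, 8656 and 7143 in Svil-KO, and 7440, 7360 and 8285 in Svil-Mut. Svil-KO 1 and 3 exceeded all WT libraries and Svil-KO 4 did not, and the log2 difference of 0.19 ± 0.09 was the highest of the members in Svil-KO (SE; limma adjusted p = 0.997). Psme2, a subunit of the interferon-inducible PA28 activator, had 897, 874 and 1038 in WT, 975, 996 and 860 in Svil-KO, and 951, 826 and 817 in Svil-Mut. The genotypes overlapped, as they did for Psme1, its partner, with log2 differences from WT of -0.0032 in Svil-KO and -0.09 in Svil-Mut. Psme3, the nuclear PA28 subunit, and Psmf1, an inhibitor of the core, had log2 differences from WT of 0.08 and 0.02 in Svil-KO and of 0.01 and 0.04 in Svil-Mut.

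Among the assembly chaperones, which join the rings and the base but leave the finished particle, Psmg4 had the lowest log2 difference of all members from WT in both altered genotypes. Psmg4 (chromosome 13, 34162964 to 34178173) had normalized counts of 404, 286 and 407 in WT 1, 3 and 4, 307, 237 and 228 in Svil-KO 1, 3 and 4, and 283, 287 and 301 in Svil-Mut 1, 2 and 4. WT 3 lay within the range of both other genotypes, so the groups overlapped. The log2 difference from WT was -0.50 ± 0.19 in Svil-KO (SE; 95% interval -0.92 to -0.08; limma adjusted p = 0.997) and -0.31 ± 0.19 in Svil-Mut (SE; limma adjusted p = 0.630). Psmd10, the chaperone also named gankyrin, had 462, 476 and 526 in WT, 481, 510 and 628 in Svil-KO, and 391, 514 and 445 in Svil-Mut, with overlap. Psmg1, Psmg2, Psmg3, Psmd5 and Psmd9 had log2 differences from WT of -0.19 (Psmg2) to 0.04 (Psmd9) in Svil-KO and of -0.25 (Psmg3) to 0.14 (Psmg1) in Svil-Mut.

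Around the members, 55 further genes of the ubiquitin-proteasome pathway were tested, in lists of partners without a Psm symbol, ubiquitin shuttles, ubiquitin and its activating enzymes, transcription factors of proteasome genes, muscle ubiquitin ligases, and antigen processing. None of the 55 was called in any of the 3 comparisons by limma (an unadjusted p below 0.05 was found for 2 in Svil-KO and 6 in Svil-Mut, each against WT, and for 7 between the altered genotypes, where 4.11%, 10% and 10.2% of all genes were found). In Svil-KO the partners with the smallest p were Ipo9, a carrier of proteasomes into the nucleus, and Sem1, a small lid subunit, with log2 differences from WT of 0.31 ± 0.12 and -0.19 ± 0.08 (SE; limma adjusted p = 0.997 each). Pomp, the chaperone of core maturation, had log2 differences from WT of -0.07 in Svil-KO and 0.02 in Svil-Mut.

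Among the transcription factors, Nfe2l1, the known activator of proteasome genes when the proteasome is impaired, had normalized counts of 23227, 22900 and 22292 in WT, 21901, 22433 and 20997 in Svil-KO, and 21770, 17375 and 20652 in Svil-Mut. All Svil-Mut libraries lay below WT, at a log2 difference of -0.20 ± 0.08 (SE; limma adjusted p = 0.449). Of the small MAF factors, which pair with these activators, Mafk and Maff lay above WT in Svil-Mut, with log2 differences of 0.86 ± 0.20 (SE; limma adjusted p = 0.266) and 2.49 ± 0.61 (SE; limma adjusted p = 0.279), and Mafg lay below it at -0.08 ± 0.13 (SE; limma adjusted p = 0.899). Normalized counts of Maff were low in WT 1, 3 and 4, at 23.0, 23.3 and 25.5. In Svil-Mut 1, 2 and 4 they were uneven, at 66.2, 363 and 110. Nfe2l2, named after its values were seen, had a log2 difference from WT of 0.62 ± 0.18 in Svil-Mut (SE; limma adjusted p = 0.325) and of 0.30 ± 0.18 in Svil-KO. The muscle ubiquitin ligases Fbxo32 (atrogin-1) and Trim63 (MuRF1), known to be induced in wasting muscle, had log2 differences from WT of 0.11 and 0.20 in Svil-KO and of 0.06 and 0.28 in Svil-Mut, with limma adjusted p-values of 0.498 or more.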

How the data were processed

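RNA of 9 tibialis anterior muscles was amplified from poly(A) tails and made into libraries with SMARTer and Nextera XT kits, per the labels' protocols. This chemistry does not mark strand. HISAT2, featureCounts and DESeq2 with mm10 are named in the submitters' processing notes, which give no version among the sources used here. What the authors deposited are counts divided by a size factor per library, a normalized signal. Dividing by the smallest step gave whole reads for 100% of values within 0.001. The members and gene lists were chosen with earlier results of these data known.

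Genes with at least 10 in at least 3 libraries were tested with limma 3.58.1 (trend, R 4.3.3) on log2(normalized count + 1), all 9 libraries in 1 fit, with Benjamini-Hochberg adjustment over all 15279 genes and a threshold of 0.05. A log2 difference on this scale understates the change of low genes. Shares and ratios were compared with exact permutation tests (scipy 1.17.1). On the recovered whole reads, edgeR 4.0.16 (quasi-likelihood) called 0, 6 and 7 of all genes and DESeq2 1.42.0 called 4, 172 and 212, for Svil-KO and Svil-Mut against WT and for Svil-KO against the mutant in turn. The limma step was tested on simulated data, with 2-fold and 4-fold changes set in 200 genes drawn from all levels. Over the 3 comparisons it called 46.6% to 48.8% of the 2-fold and 72.3% to 74.9% of the 4-fold changes. Of its calls, 4.68% to 6.26% were false. Many true changes of that size can thus go uncalled. Gene lengths and positions came from GENCODE M21 on GRCm38, the genome of mm10, and may differ from the authors' annotation. Individually described were the catalytic subunits and, in each role, the members with the smallest p in each comparison. Of the related genes these were the pair with the smallest p in each comparison, with Nfe2l1, Pomp, Fbxo32 and Trim63. Alternatives were other scalings, pseudocounts, filters, variance models and tools, a replicate block, and leaving out each library.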

Additional observations from a re-analysis of the deposited data

How the results depend on the processing

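No member was called (0 in each of the 3 comparisons) under any of the 22 alternatives. The smallest adjusted p of a member over these was 0.916 in Svil-KO against WT, 0.319 in Svil-Mut against WT and 0.0842 in Svil-KO against Svil-Mut (Psmd8, DESeq2). Over all genes, limma called 0, 6 and 7 and DESeq2 called 4, 172 and 212 in the same order. The median log2 difference of the members ranged from -0.10 to -0.04, from -0.04 to 0.03 and from -0.11 to -0.04. Leaving out each library in turn, a choice made after seeing the data, gave 9 to 19, 1 to 6 and 8 to 22 members lower without overlap, where 9.81% to 10.9%, 11.1% to 12.7% and 11.4% to 13.5% of all genes were, and 16 to 32 members below 0 in Svil-Mut against WT. With fewer libraries, absence of overlap is easier to meet. Among the individually described members, 28 of 1134 alternative values changed sign, each of a result that did not pass its test. Among the ratios 4 of 90 changed sign, where the permutation test could not give a p below 0.1.

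The labels do not say whether libraries with the same number share a litter or day, and they were treated as unpaired: the correlation of their deviations lay between -0.06 and 0.04 over 7 pairs. Between WT and Svil-KO, 6 of 6 libraries correlated best with the library of their own number, at r of 0.026 to 0.044. These 6 are not independent, as deviations within a genotype sum to 0. With Svil-Mut included, the highest r of any pair joined different numbers (WT 3 and Svil-Mut 4, 0.061). The lowest joined the same number (WT 4 and Svil-Mut 4, -0.056). These values come from the data and not the design, and do not decide whether numbers mark pairs. With a replicate block, 0 members were called in each comparison, and the median log2 differences were -0.08, -0.04 and -0.06. With 3 libraries per genotype, differences of the size of the members' median lie inside the interval of nearly every single gene.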
